A study of Drosophila melanogaster with 30 samples.

Results

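The constitutive chaperones of the Hsc70 and Hsp60 families are described here in whole *Drosophila melanogaster* females exposed to cold or heat. The 7 genes were chosen by name, as the cognate Hsc70 genes Hsc70-1 to Hsc70-5, the Hsp110-type partner Hsc70Cb and the chaperonin Hsp60A, out of 17807 genes in the count table. Hsc70Cb carried the current symbol Hsp110 and was matched as a synonym. All 7 passed the filter on low counts in both library types. The flies were adult Canton S females, a wild-type laboratory strain with no transgene, reared at 25°C. Groups of 6 whole flies were sealed in a vial, and the water bath moved at 0.25°C per minute to 4°C, 10°C, 34°C or 37°C, with flies at 25°C as controls. The sample records give a hold of 5 min at 34°C and 37°C and of 0 min at 4°C and 10°C, and the study's methods assign the holds differently. There were 3 pools at each temperature and 1 polyA-selected (polyA+) and 1 rRNA-depleted (rRNA−) library from each of the 15 pools, 30 libraries in all.

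Hsc70 proteins bind exposed hydrophobic stretches of unfolded or nascent proteins in cycles of ATP binding and hydrolysis, which J-domain proteins start and nucleotide exchange factors reset. Unlike the heat-inducible Hsp70 and small Hsp genes, cognate genes are expressed in unstressed cells, and each serves its own compartment. Hsc70-4 is the main cognate of the cytosol, Hsc70-3 is the BiP of the endoplasmic reticulum (ER), Hsc70-5 is the mortalin of the mitochondrial matrix, and Hsp60A encloses matrix proteins in a folding chamber.

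In the Ensembl annotation of the dm6 assembly (BDGP6), none of the 7 genes shared exon bases with another gene on either strand. Hsc70-4 (FBgn0266599) lies at chr3R:15242687-15246614 on the plus strand with 7 annotated transcripts, and Hsc70-2 (FBgn0001217) at chr3R:13044759-13047388 on the plus strand with 1. Hsc70-1 (FBgn0001216) at chr3L:13974061-13977761 and Hsc70Cb (FBgn0026418) at chr3L:14037019-14043686 are on the plus strand of the same arm. Hsc70-3 (FBgn0001218) lies at chrX:11801696-11807117 on the minus strand, and Hsp60A (FBgn0015245) at chrX:11108482-11112308 on the plus strand. Hsc70-5 (FBgn0001220) lies at chr2R:14252598-14256192 on the minus strand.

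Whole-number counts were compared from reads trimmed and drawn down to like depth, with totals of 2188773 to 5925256 in polyA+ and 2067003 to 5541348 in rRNA− libraries. The biological coefficient of variation was 0.538 across polyA+ and 0.240 across rRNA− libraries. In 5 polyA+ libraries (10°C replicate 2, 34°C replicates 2 and 3, 37°C replicates 1 and 2) the share of histone genes in the full counts was 0.00173% to 0.00476%, against 0.0144% to 0.0240% in the other 10. All 3 yolk protein genes were found in every group, whereas of 9 male markers at least 5 had no count in any given group. RNA amount, sequencer and original read length differed between the library types and cannot be told apart from them.

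Hsc70-4 was by far the most abundant of the genes per unit length. Its TPM (counts per exonic length, scaled to the same total in every library) averaged 1960 ± 712 in polyA+ and 2209 ± 427 in rRNA− libraries (SD, n = 15), which placed Hsc70-4 at rank 105 and rank 80 of 17710 genes. It held 60.4% ± 6.92 of the summed TPM of the 7 genes in polyA+ and 60.4% ± 1.41 in rRNA− libraries. Hsp60A followed with 768 ± 180 TPM in polyA+ and 585 ± 101 TPM in rRNA− libraries. Hsc70-5, Hsc70-3 and Hsc70Cb averaged 162, 147 and 94.5 TPM in polyA+ libraries. The same genes averaged 196, 424 and 204 TPM in rRNA− libraries, where Hsc70-3 therefore stood above Hsc70-5. Hsc70-1 was a low gene at 37.5 ± 22.6 TPM in polyA+ and 35.1 ± 6.23 TPM in rRNA− libraries, and Hsc70-2 was close to the detection limit at 2.07 and 1.71 TPM, with 0 to 53 counts in a library. Together the 7 genes took 0.660% of polyA+ and 0.682% of rRNA− counts.

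**Figure D1:**
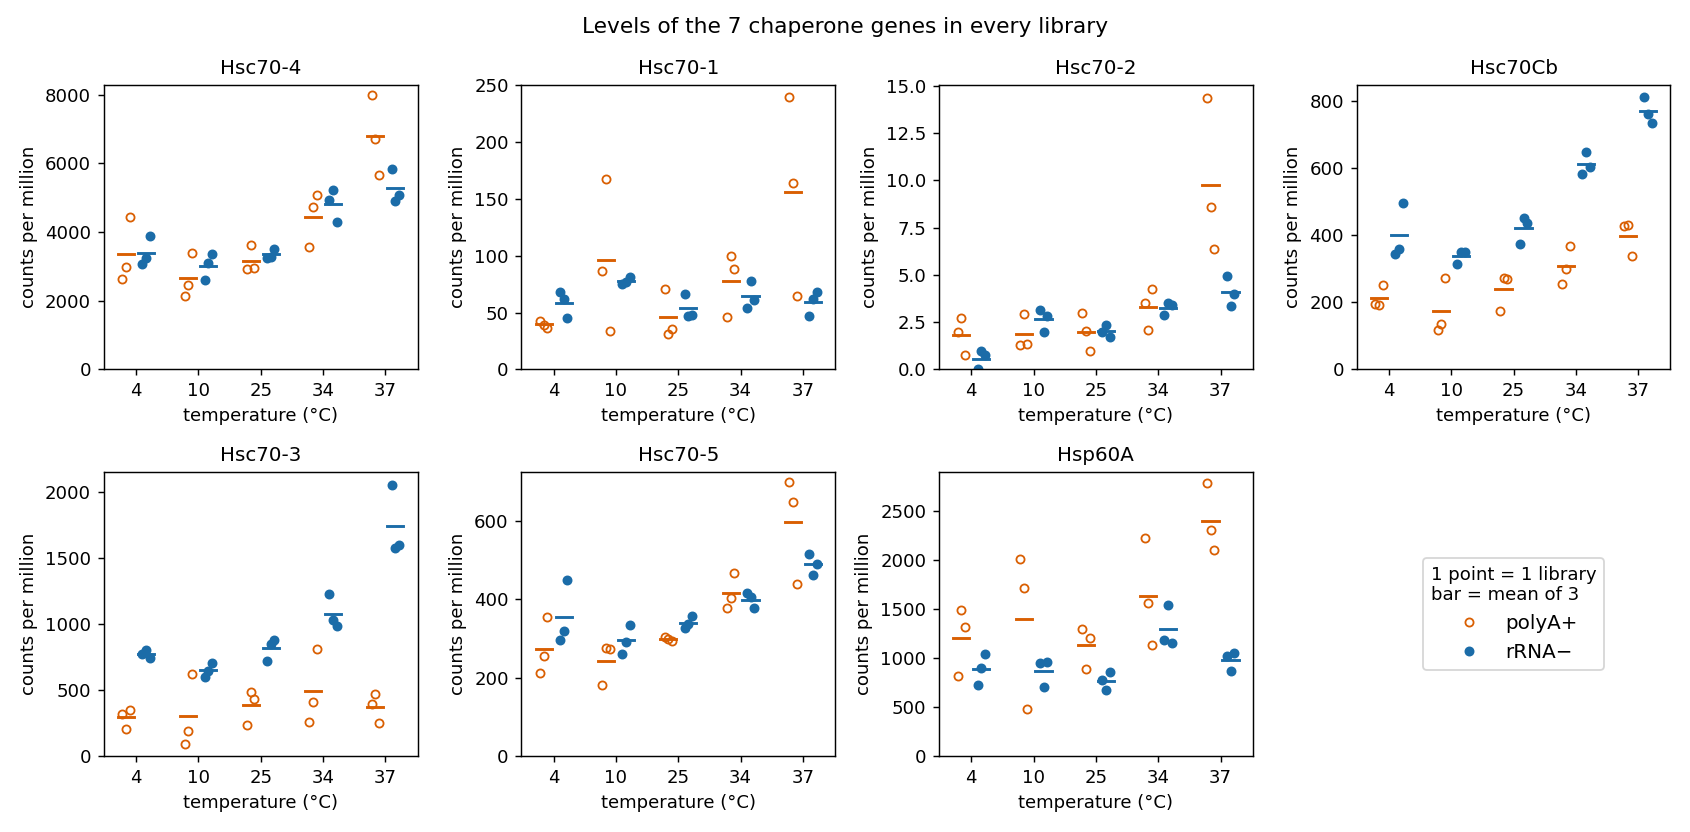
Level of each gene in CPM (counts scaled by library size and TMM factor within a library type) against temperature in °C. Each point is 1 library, open for polyA+ and filled for rRNA−, and bars are means of 3. In rRNA− libraries Hsc70-3 and Hsc70Cb stood highest at 37°C, Hsp60A was highest at 34°C, and polyA+ points of one temperature were spread more widely.

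The main cytosolic cognate, its exchange factor and the ER cognate were higher in heated flies by rRNA− libraries. At 37°C, 3 of the 7 genes were called higher than at 25°C (Hsc70-3, Hsc70Cb and Hsc70-4; quasi-likelihood F test of edgeR, Benjamini-Hochberg adjusted p under 0.05) and 0 lower, where 3.22% of all genes tested were called higher. At 34°C, 1 of the 7 (Hsp60A) was called, against 1.08% of all genes tested. A single fit of all 30 libraries, which shares the spread of both library types, called 0 of the 7 at either temperature in rRNA− libraries, with adjusted p-values at 37°C of 0.845 for Hsc70-3, 0.378 for Hsc70Cb and 0.586 for Hsc70-4. The median log2 fold change of the 7 genes was 0.66 at 37°C and 0.52 at 34°C, where the medians were −0.05 and −0.06 over all genes. By CPM, the 3 libraries at 37°C lay above the 3 at 25°C for 6 of the 7 genes, all but Hsc70-1, against 12.6% of all genes. The same 6 did so at 34°C, against 13.4% of all genes. By TPM, Hsp60A at 37°C and Hsc70-2, Hsc70-3 and Hsc70-5 at 34°C overlapped with the controls too, so these counts depend on the scaling. In whole flies, more RNA per cell and more cells of a type that expresses a gene cannot be told apart. The summed level of 5 ovary markers moved with heat in these libraries, from 6794 to 12120 CPM at 25°C to 3644 to 6157 CPM at 37°C, and that of 4 midgut markers from 872 to 2099 CPM to 2671 to 3500 CPM. The 3 yolk protein genes went from 22560 to 26490 CPM to 37870 to 41950 CPM, and 4 neuron markers from 291 to 379 CPM to 220 to 280 CPM. The 4 flight muscle genes overlapped, at 4055 to 7264 CPM and 4750 to 5813 CPM. The part of these tissues in the results was not tested.

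Hsc70-4, the cytosolic cognate that also strips clathrin from vesicles, measured 3250, 3280 and 3513 CPM in the 3 rRNA− libraries at 25°C. The level was 4933, 5213 and 4298 CPM at 34°C and 5830, 4904 and 5084 CPM at 37°C. All 6 heated libraries lay above all controls, while the 34°C and 37°C groups overlapped. The log2 fold change was 0.66 ± 0.14 (SE) at 37°C, with an adjusted p of 0.0122, and 0.52 ± 0.14 at 34°C, where the adjusted p was 0.0745. The call at 37°C was lost without 25°C replicate 2 (adjusted p = 0.0553) or without 37°C replicate 1 (adjusted p = 0.0585).

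Hsc70Cb, an Hsp110 protein that serves Hsp70 as a nucleotide exchange factor, was higher at 37°C than at 25°C. Its rRNA− levels were 373, 450 and 437 CPM at 25°C, 582, 647 and 602 CPM at 34°C, and 812, 759 and 733 CPM at 37°C. No library of one of these groups overlapped with another group. The log2 fold change against 25°C was 0.87 ± 0.14 at 37°C (adjusted p = 0.00212) and 0.54 ± 0.14 at 34°C (adjusted p = 0.0736). Between 37°C and 34°C it was 0.33 ± 0.14 (adjusted p = 0.326), so that neither single step passed the test.

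Hsc70-1 and Hsc70-2 are lowly expressed relatives of Hsc70-4. Hsc70-1 in rRNA− libraries ranged from 47.1 to 66.4 CPM at 25°C, from 54.1 to 78.0 CPM at 34°C and from 47.2 to 68.1 CPM at 37°C, so that the heat groups overlapped with the controls. Its log2 fold change at 37°C was 0.13 ± 0.19 (adjusted p = 0.782). Hsc70-2 had 10, 12 and 7 counts at 25°C, 10, 18 and 15 at 34°C and 20, 13 and 16 at 37°C. The last group lay above the controls, and its log2 fold change of 1.01 ± 0.44 did not pass the test (adjusted p = 0.225).

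Hsc70-3, the ER chaperone whose messenger is a classical target of the unfolded protein response, showed the largest fitted change of the 7 genes at 37°C in rRNA− libraries. It measured 721, 850 and 881 CPM at 25°C, 1227, 1028 and 984 CPM at 34°C, and 2055, 1575 and 1598 CPM at 37°C. By CPM the 3 groups did not overlap, and replicate 1 was the highest library in both heated groups. By TPM the libraries at 34°C (354.9 to 472.3) overlapped with the controls (334.0 to 409.0). The log2 fold change was 1.09 ± 0.14 at 37°C (adjusted p = 0.000266) and 0.40 ± 0.14 at 34°C (adjusted p = 0.128). Between 37°C and 34°C, a comparison in which 0.237% of all genes were called, Hsc70-3 differed by 0.69 ± 0.14 with an adjusted p of 0.0547. By edgeR 0 of the 7 genes were called between 37°C and 34°C. An unadjusted p under 0.05 was reached by 3 of the 7, beside 1284 of all 9718 genes tested. DESeq2's Wald test called 1 of the 7 genes, Hsc70-3, at an adjusted p of 0.000155.

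In rRNA− libraries the mitochondrial pair differed in the temperature of the highest mean level, whereas in polyA+ libraries both means were highest at 37°C. Hsc70-5, which pulls precursor proteins into the matrix, measured 325, 336 and 356 CPM at 25°C in rRNA− libraries. It measured 415, 405 and 378 CPM at 34°C, and 515, 461 and 490 CPM at 37°C. By CPM the groups were apart and ordered by temperature, and the log2 fold change at 37°C was 0.53 ± 0.15 (adjusted p = 0.0542), just outside the threshold. By TPM the libraries at 34°C (171.5 to 196.0) overlapped with those at 25°C (185.3 to 202.0). DESeq2, median-of-ratios scaling and a fit of only the 6 libraries each called Hsc70-5 at 37°C, with adjusted p-values of 0.00713, 0.0411 and 0.0172.

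Hsp60A measured 781, 674 and 855 CPM at 25°C, 1181, 1536 and 1153 CPM at 34°C, and 1024, 871 and 1055 CPM at 37°C in rRNA− libraries. Every library at 34°C lay above every library at 37°C, and by CPM every library at 37°C lay above the controls. By TPM the libraries at 37°C (503 to 598) overlapped with the controls (469 to 571). The log2 fold change was 0.74 ± 0.17 at 34°C (adjusted p = 0.0471) and 0.35 ± 0.17 at 37°C (adjusted p = 0.292). The direct contrast of 37°C with 34°C gave −0.39 ± 0.17, which did not pass the test (adjusted p = 0.346). The call at 34°C held without 34°C replicate 1 (adjusted p = 0.0429) and was lost without any other library of the comparison, namely 25°C replicates 1, 2 and 3 and 34°C replicates 2 and 3, with adjusted p-values up to 0.244. It was also lost with the replicate block (adjusted p = 0.0557), with full counts (0.0512), with only the 6 libraries compared (0.0728) and with one fit of all 30 libraries (0.866). DESeq2 at 34°C called 4 genes, Hsp60A, Hsc70-3, Hsc70-4 and Hsc70Cb.

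**Figure D2:**
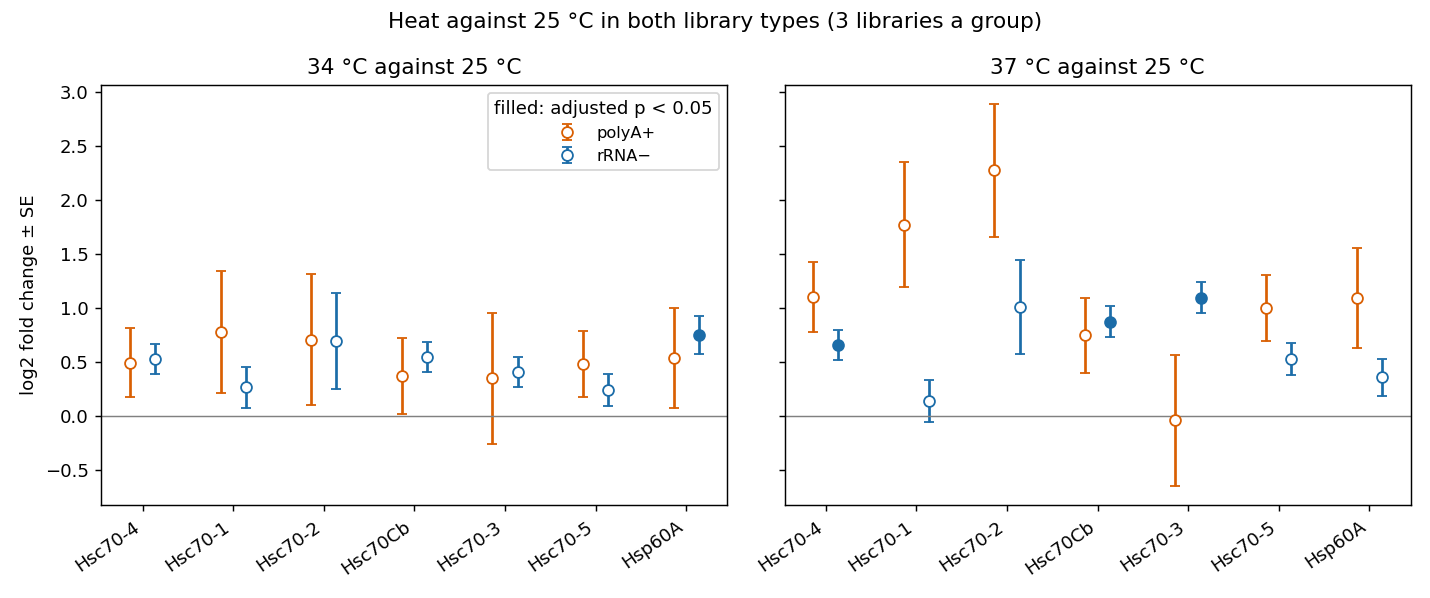
Log2 fold change of each gene at 34°C and at 37°C against 25°C, with its standard error, from the fit of 15 libraries of a type (3 a group). Filled points passed an adjusted p of 0.05, which were Hsp60A at 34°C and Hsc70-4, Hsc70Cb and Hsc70-3 at 37°C, all in rRNA− libraries, and the error bars of polyA+ libraries were wider.

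In polyA+ libraries 0 of the 7 genes passed edgeR's test at either heat temperature. At 37°C, 3.76% of all genes tested were called higher. An unadjusted p under 0.05 was reached by 5 of the 7, all higher, beside 2429 of all 9257 genes in either direction. At 34°C, 0.0864% of all genes were called higher. There 0 of the 7 had an unadjusted p under 0.05, beside 665 of all 9257 genes in either direction. The standard errors at 37°C ran from 0.31 to 0.61, against 0.14 to 0.44 in rRNA− libraries. Of these groups, 34°C replicates 2 and 3 and 37°C replicates 1 and 2 had a low histone share, and no control did. By CPM, the 3 libraries at 37°C lay above all controls for Hsc70-2, Hsc70-4, Hsc70-5, Hsc70Cb and Hsp60A, 5 of 7 genes against 18.9% of all genes tested. The libraries at 34°C did so for Hsc70-5 alone, against 8.18% of all genes. By TPM, Hsc70-5 at both temperatures and Hsc70Cb at 37°C overlapped with the controls. Tissue markers moved between 25°C and 37°C in these libraries too, ovary markers from 7172 to 17320 CPM to 587 to 5332 CPM, midgut markers from 369 to 1403 CPM to 2723 to 7152 CPM and yolk protein genes from 9075 to 14330 CPM to 18580 to 33920 CPM, and their part was not tested.

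Hsc70-4 in polyA+ libraries measured 2923, 3629 and 2948 CPM at 25°C and 7986, 6714 and 5647 CPM at 37°C. By CPM the groups were well apart, with a log2 fold change of 1.10 ± 0.33 and an adjusted p of 0.0697. By TPM they were apart by little, with 2185 as the highest value at 25°C and 2261 as the lowest at 37°C. Hsc70-5 went from 305, 297 and 294 CPM to 699, 649 and 440 CPM, a log2 fold change of 1.00 ± 0.31 with an adjusted p of 0.0748. Hsp60A went from 1290, 883 and 1208 CPM to 2780, 2305 and 2098 CPM, and its log2 fold change of 1.09 ± 0.47 had an adjusted p of 0.161. At 34°C Hsc70-5 and Hsp60A averaged 416 and 1634 CPM, below their means of 596 and 2395 CPM at 37°C.

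Hsc70Cb had a log2 fold change of 0.74 ± 0.35 at 37°C in polyA+ libraries (adjusted p = 0.194). Hsc70-2 had 14, 12 and 4 counts at 25°C and 53, 30 and 23 at 37°C, with a log2 fold change of 2.27 ± 0.61 (adjusted p = 0.0536). The 6 copies of Hsp70, inducible relatives of the Hsc70 genes, together held 1 to 3 equalized counts at 25°C and 2657 to 3280 at 37°C in these libraries, or 966 to 1581 and 591161 to 669573 full counts. Whether reads of these copies reached Hsc70-2 was not tested. In rRNA− libraries, full counts summed over the 15 libraries were 1.00 times the equalized counts for Hsc70-2 and 1.01 times for Hsc70-3, the highest ratio of the 7 genes.

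Hsc70-3 was the exception in polyA+ libraries, at 237, 488 and 433 CPM at 25°C, 256, 408 and 808 CPM at 34°C, and 397, 472 and 254 CPM at 37°C. The groups overlapped throughout, and the log2 fold change at 37°C was −0.05 ± 0.61 (adjusted p = 0.968). Its sign turned with the scaling, to 0.14 with median-of-ratios size factors.

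The calls at 37°C in polyA+ libraries depended on the setting. DESeq2 called 5 genes (Hsc70-1, Hsc70-2, Hsc70-4, Hsc70-5 and Hsp60A), and edgeR without 37°C replicate 3 called 4 (Hsc70-1, Hsc70-2, Hsc70-4 and Hsc70-5). Median-of-ratios size factors moved the log2 fold changes of the 7 genes at 37°C up by a median of 0.19 and gave 3 calls. The shares of all genes called in these settings were not kept, so these counts have no background beside them.

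Hsc70-1 varied widely in polyA+ libraries, with a coefficient of variation of 74.3% across 15 libraries against 19.6% in rRNA− libraries, and of the 7 genes the low-count Hsc70-2 alone varied more in polyA+ libraries (96.2%). The polyA+ levels were 70.6, 31.6 and 35.2 CPM at 25°C, 46.4, 99.9 and 87.9 CPM at 34°C, and 240, 164 and 64.7 CPM at 37°C. The log2 fold change at 37°C was 1.77 ± 0.58 (adjusted p = 0.084). In the cold, the values were 42.8, 39.4 and 36.8 CPM at 4°C and 86.8, 167 and 34.0 CPM at 10°C, and the log2 fold change at 10°C was 1.07 ± 0.57 (adjusted p = 0.764).

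The high Hsc70-1 values fell in particular polyA+ libraries, at 10°C, 34°C and 37°C. The 5 libraries of low histone share held 87.9 to 240 CPM, and the other 10 held 31.6 to 86.8 CPM. The rRNA− libraries of the same pools held 47.2 to 78.0 CPM and 45.1 to 81.6 CPM. The classes thus did not overlap in polyA+ libraries and overlapped almost fully in rRNA− libraries of the same flies.

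The summed level of 4 flight muscle genes (Act88F, Mhc, fln and TpnC4) divided the polyA+ libraries in the same way, with 8337 to 11550 CPM in the 5 libraries and 639 to 1774 CPM in the other 10, beside 4055 to 7264 CPM in the 15 rRNA− libraries. With a term for the histone share, the log2 fold change of Hsc70-1 at 37°C was 0.68, and with only libraries of high histone share, chosen after the data were seen and leaving 1 library at 37°C, it was 0.49. What sets these libraries apart was not tested. The other 6 genes overlapped between the classes, for example Hsc70-4 at 2458 to 7986 CPM in the 5 libraries and 2136 to 5647 CPM in the other 10. With the histone term their log2 fold changes at 37°C moved too, from 1.10 to 0.94 for Hsc70-4 and from 1.00 to 0.73 for Hsc70-5. Hsc70-2 went from 2.27 to 1.84, Hsc70Cb from 0.74 to 0.69 and Hsc70-3 from −0.05 to −0.36, and Hsp60A stayed at 1.09.

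**Figure D3:**
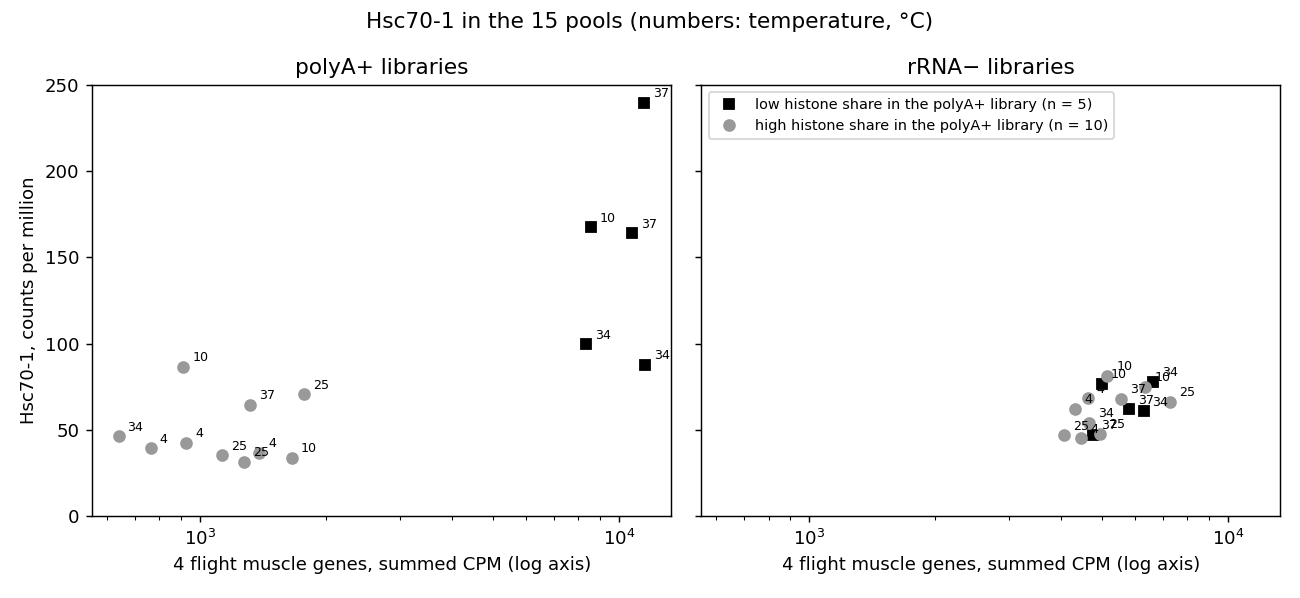
Hsc70-1 in CPM against the summed CPM of 4 flight muscle genes (log axis) in the polyA+ and in the rRNA− library of each of the 15 pools, with the temperature in °C beside each point. Squares are pools whose polyA+ library had a low histone share (n = 5) and circles the others (n = 10). In polyA+ libraries only, the squares lay apart along the flight muscle axis, at 8337 CPM and above against at most 1774 CPM. For Hsc70-1 the lowest square, at 87.9 CPM, was close to the highest circle, at 86.8 CPM.

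The cold gave no call among the 7 genes. By edgeR, 0 of the 7 passed at 4°C or 10°C in either library type. Over all genes, in rRNA− libraries 0.0103% were called at 4°C and 6.50% at 10°C, and 0% at both temperatures in polyA+ libraries. Without adjustment, p was under 0.05 in rRNA− libraries for 1 of the 7 genes at 4°C, beside 400 of all 9718 genes tested. At 10°C it was under 0.05 for 3 of the 7, beside 2400 of 9718. In polyA+ libraries 0 of the 7 had such a p, beside 58 of all 9257 genes at 4°C and 584 at 10°C. DESeq2 called 0 of the 7 in each case.

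By CPM, over all genes tested in rRNA− libraries, the 3 libraries at 10°C lay below the 3 controls for 18.4% and above them for 12.3%. Of the 7 genes, 2 lay below and 1 above. Markers of tissues moved with 10°C as well, with 5 ovary markers at 12540 to 14120 CPM, 4 midgut markers at 2786 to 3315 CPM, 3 yolk protein genes at 32280 to 44460 CPM and 4 neuron markers at 168 to 250 CPM, and their part was not tested. Hsc70-3 in rRNA− libraries measured 602, 642 and 707 CPM at 10°C, below all 3 controls, and 771, 804 and 742 CPM at 4°C. The log2 fold change at 10°C was −0.33 ± 0.14 (adjusted p = 0.154). Hsc70Cb at 10°C, with 315, 350 and 350 CPM, also lay below the controls (log2 fold change −0.31 ± 0.14, adjusted p = 0.182).

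Hsc70-1 in rRNA− libraries lay above the controls at 10°C by CPM, at 75.0, 76.9 and 81.6 CPM (log2 fold change 0.53 ± 0.20, adjusted p = 0.112). It passed the test without 25°C replicate 1 (adjusted p = 0.0467). By TPM the libraries at 10°C (39.65 to 44.79) overlapped with the controls (29.21 to 40.66). At 4°C Hsc70-1 measured 68.3, 62.3 and 45.1 CPM and overlapped with the controls. Hsc70-2 had 0, 3 and 3 counts at 4°C and 9, 6 and 6 at 10°C in rRNA− libraries, beside 10, 12 and 7 at 25°C. The libraries at 4°C lay below the controls, as for 4.86% of all genes, and an observed count of 0 allows an expected count of up to about 3. Its adjusted p at 4°C was 1.0.

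Hsc70-4 had its lowest mean level at 10°C in both library types, at 2657 ± 644 CPM in polyA+ and 3023 ± 387 CPM in rRNA− libraries (SD, n = 3), and both overlapped with the controls. Hsc70-5 likewise was lowest at 10°C, at 243 ± 53.2 CPM in polyA+ and 295 ± 38.0 CPM in rRNA− libraries. In polyA+ libraries the 3 values of Hsc70-5 at 10°C, 182, 275 and 273 CPM, lay below the controls, whose SD was 5.49 CPM, as did 4.87% of all genes tested. By TPM the libraries at 10°C (62.16 to 192.0) overlapped with the controls (130.9 to 166.4), so this depends on the scaling. Hsp60A at 4°C and 10°C averaged 890 ± 158 and 868 ± 146 CPM in rRNA− libraries, and these neighbours in the order of levels did not differ beyond their spread.

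The order of temperatures by CPM in rRNA− libraries was therefore the same for Hsc70-3 and Hsc70Cb, from 10°C through 4°C, 25°C and 34°C to 37°C. The levels at 4°C and 25°C overlapped in both genes, and those at 25°C, 34°C and 37°C were apart. For Hsc70-4 and Hsc70-5 the order was 10°C, 25°C, 4°C, 34°C and 37°C, with the levels at 10°C, 25°C and 4°C overlapping. For Hsc70-4 the levels at 34°C and 37°C overlapped as well, and for Hsc70-5 those at 4°C and 34°C. Hsp60A ran from 25°C through 10°C, 4°C and 37°C to 34°C, and the level at 34°C alone stood clear of its neighbour.

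The library types gave the genes different levels. Scaled over all 30 libraries, Hsc70-3 and Hsc70Cb were called higher in rRNA− libraries, by 0.99 ± 0.22 and 0.54 ± 0.13 on the log2 scale (adjusted p = 0.000391 and 0.000741), as were 37.0% of all genes tested. The other 5 genes were called lower, as were 38.0% of all genes. Hsp60A was lower by the largest margin, with a log2 difference of −1.02 ± 0.15, followed by Hsc70-2 at −0.85 ± 0.25, Hsc70-1 at −0.62 ± 0.20, Hsc70-4 at −0.37 ± 0.11 and Hsc70-5 at −0.28 ± 0.11. This fit left out that each pool gave 1 library of each type. With a term for the pool, 7 genes were again called. By TPM, which is scaled within each library, the mean levels of Hsc70-4 and Hsc70-5 given above were higher in rRNA− libraries, so their direction depends on the scaling. The call for Hsc70-5 (adjusted p = 0.027) was lost when any of 5 pools was left out, namely 10°C replicate 2, 25°C replicate 2, 34°C replicate 3 and 37°C replicates 1 and 2, with adjusted p-values of 0.0558 to 0.0663.

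Pool by pool, Hsc70Cb was higher in the rRNA− library of 14 of 15 pools and Hsc70-3 of 13, whereas Hsp60A was higher in the polyA+ library of 14. For Hsc70-3 the log2 ratio of rRNA− to polyA+ ranged from −0.24 to 2.56 across pools, and for Hsc70Cb from −0.05 to 1.24. Hsc70-1 was higher in the polyA+ library of only 10 pools, with log2 ratios from −2.81 to 0.84.

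The responses to 37°C were also compared between the library types by an interaction term. By edgeR 0 of the 7 genes were called, where 0.00990% of all genes were. An unadjusted p under 0.05 was reached by 1 of the 7, beside 1543 of all 10103 genes tested. DESeq2 called 0 of the 7. Hsc70-1 had the smallest p of the 7 genes, with a log2 difference of −1.75 ± 0.65 (rRNA− minus polyA+, adjusted p = 0.26), and reached an adjusted p of 0.0464 without the pool at 37°C replicate 3. Hsc70-3 went the other way at 1.11 ± 0.71 (adjusted p = 0.432). The differences for Hsp60A and Hsc70-4 were −0.79 ± 0.47 and −0.48 ± 0.36 (adjusted p = 0.407 and 0.49). The heat calls in rRNA− libraries are thus not shown to be particular to that library type.

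Around these genes, the heat-inducible Hsp genes rose far more. At 37°C in rRNA− libraries 12 of 13 tested members of that list were called higher and 0 lower, against 3.22% and 1.54% of all genes tested. The median log2 fold change was 7.41, against −0.05 over all genes. Some members passed the filter on low counts only through heated libraries, such as Hsp70Ba, with 0 counts in every rRNA− library at 4°C, 10°C and 25°C. For those a higher call was set in advance, and their folds start near 0 counts, which bears on the median. Hsp68, an inducible Hsp70-family gene, rose from 22.8 ± 3.53 CPM to 7819 ± 764 CPM (log2 fold change 8.42 ± 0.19, adjusted p = 2.12e-13). The small heat shock genes Hsp23 and Hsp22 rose by log2 fold changes of 8.91 ± 0.23 and 7.76 ± 0.23 (adjusted p = 6.46e-13 and 3.38e-12). In polyA+ libraries 11 of 12 tested members were called higher at 37°C and 6 at 34°C, against 3.76% and 0.0864% of all genes. In rRNA− libraries 10 of 13 were called higher at 34°C, against 1.08% of all genes. For the Hsp70 copies on this list, these results rest on the equalized counts, which hold only a small part of their full counts.

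Of 10 matched cofactors of cytosolic Hsp70, all tested, 3 were called higher at 37°C in rRNA− libraries, 0 lower and 7 neither. Over all genes tested, 3.22% were called higher and 1.54% lower. The BAG-domain cochaperone stv rose from 87.5 ± 0.415 CPM to 2016 ± 154 CPM, a log2 fold change of 4.53 ± 0.12 (adjusted p = 6.46e-13). DnaJ-1, the J-domain partner of Hsp70, rose from 169 ± 20.1 CPM to 2390 ± 278 CPM (log2 fold change 3.83 ± 0.18, adjusted p = 1.88e-09). Droj2, another J-domain protein, rose by 0.69 ± 0.13 (adjusted p = 0.00687), a change of the size seen for Hsc70-4. The median log2 fold change of the list was 0.01. Stip1, the current symbol of the listed Hop, which matched no gene under that name, was left out of these counts. Looked up after its values were seen, it was called higher at 37°C in rRNA− libraries (log2 fold change 1.15 ± 0.16, adjusted p = 0.000678). At 34°C stv and DnaJ-1 were called in rRNA− libraries, and in polyA+ libraries stv at 34°C and both at 37°C.

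Of 15 ER folding and unfolded protein response genes, 2 were called higher at 37°C in rRNA− libraries and 0 lower, against 3.22% and 1.54% of all genes. The list median was 0.26, against −0.05 over all genes. Xbp1, the transcription factor of the unfolded protein response, rose from 397 ± 17.5 CPM to 627 ± 77.3 CPM (log2 fold change 0.66 ± 0.12, adjusted p = 0.00468). Cnx99A, the ER lectin chaperone calnexin, rose by 0.40 ± 0.10 (adjusted p = 0.0344). Gp93, the ER member of the Hsp90 family, measured 344 ± 26.0 CPM at 25°C and 513 ± 43.2 CPM at 37°C, with an adjusted p of 0.0597. In polyA+ libraries 0 of 15 were called at either heat temperature.

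Of 9 tested genes of mitochondrial folding, out of 12 matched, 0 were called at any temperature in either library type, and the median at 37°C in rRNA− libraries was 0.04. CG11267, the Hsp10 that caps the Hsp60 chamber, had log2 fold changes of −0.28 ± 0.17 at 34°C and 0.27 ± 0.17 at 37°C (adjusted p = 0.328 and 0.41). At 34°C, where Hsp60A was called higher, CG11267 thus had a fitted value below 0. Roe1, the GrpE-type exchange factor of the mitochondrial Hsp70, had −0.14 ± 0.16 at 37°C (adjusted p = 0.703).

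All 8 subunits of the cytosolic chaperonin CCT were tested, and 0 were called at any temperature in either type, with medians in rRNA− libraries of 0.36 at 37°C and 0.33 at 34°C.

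**Figure D4:**
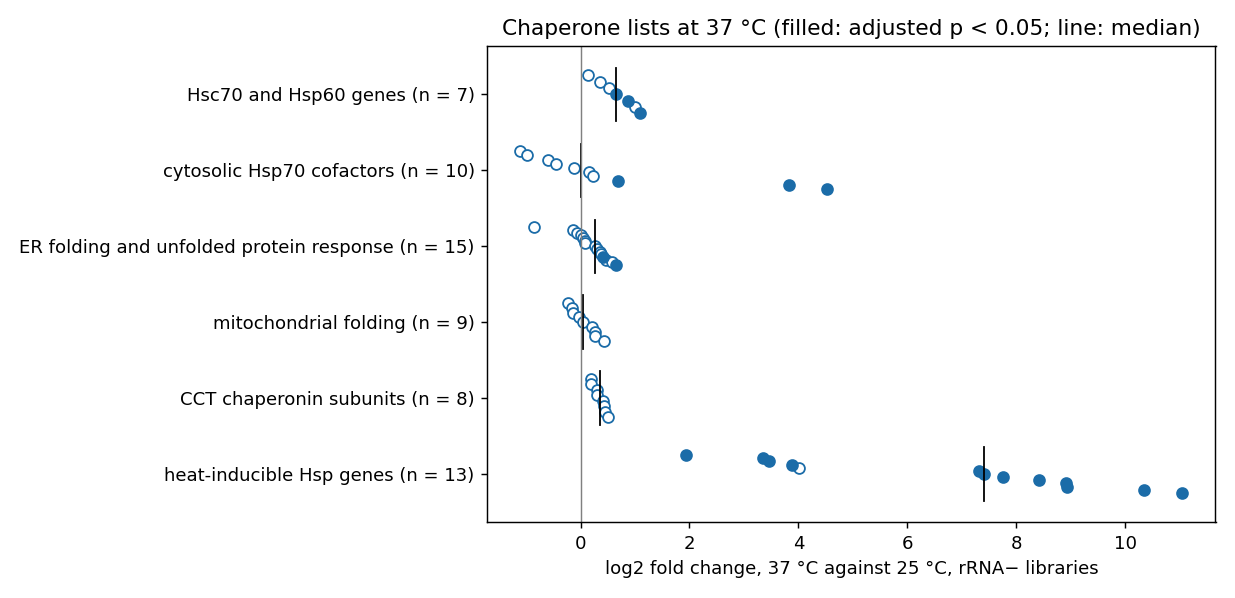
Log2 fold change at 37°C against 25°C in rRNA− libraries for the 7 constitutive genes and for the tested members of 5 chaperone lists. Each point is 1 gene, filled where the adjusted p was under 0.05, and the vertical line is the median of a list, which was 0.66 for the constitutive genes, 7.41 for the heat-inducible Hsp genes and 0.36 for the CCT subunits.

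Across the 15 rRNA− libraries, several of the genes had their closest counterparts among one another and among other chaperones. These Pearson correlations of log2 CPM are descriptions over 15 libraries that share the same temperature groups. Hsc70-4 was most like Hsc70Cb (r = 0.961) and Hsp83, the cytosolic Hsp90 (r = 0.954), with 0.917 and 0.878 in polyA+ libraries. Hsc70-5 was most like Hsc70Cb (0.930) and Hsc70-4 (0.927), with 0.867 and 0.953 in polyA+ libraries.

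Hsc70-3 was most like Cnx99A (r = 0.956) and Stip1 (0.955), the cochaperone that bridges Hsp70 and Hsp90, with 0.919 and 0.653 in polyA+ libraries. Hsc70Cb was most like the small heat shock gene Hsp27 (0.971) and the antisense RNA asRNA:CR43481 (0.965), with 0.938 and 0.768 in polyA+ libraries. Hsp27 was itself among the heat-inducible genes called higher at 37°C in rRNA− libraries.

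Hsp60A stood apart, with Adss, an adenylosuccinate synthetase (r = 0.976), and HisRS, a histidyl-tRNA synthetase (0.940), as its closest genes, and 0.900 and 0.826 in polyA+ libraries. Hsc70-1 was most like SdhD, a subunit of the respiratory complex succinate dehydrogenase (0.920), and Zasp67, a Z-disc protein (0.916), with 0.955 and 0.873 in polyA+ libraries. The nearest genes to Hsc70-2, CG32137 (0.850) and Vps25 (0.835), reached only 0.314 and −0.05 in polyA+ libraries. Within the 7 genes, the correlations of Hsc70-1 with the other 6 in rRNA− libraries ran from −0.46 to 0.09, whereas Hsc70-3, Hsc70-4, Hsc70-5 and Hsc70Cb correlated with each other at 0.866 to 0.961.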

How the data were processed

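Whole-number read counts per gene were used as the authors deposited them, without normalization, from reads aligned to dm6 (per the sample records STAR 2.7.7a and Salmon 1.4.0; which of them gave the counts is not given in the sources used here). In the equalized table, used unless full counts are named, rRNA reads had been taken out by the authors, and the polyA+ reads had been cut to 85 bp and thinned until they matched the rRNA− library from the same flies in number. Both tables list 17807 genes.

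The 15 libraries of each type were fitted apart with edgeR 4.0.16 (R 4.3.3), by robust quasi-likelihood tests after TMM scaling and filterByExpr (5 groups), which kept 9257 genes for polyA+ and 9718 for rRNA−. Calls needed an adjusted p (Benjamini-Hochberg, over all genes tested) under 0.05. Library types were compared in one fit of all 30 libraries over 10103 genes. Standard errors are approximate, from the F values. Levels are TMM-scaled CPM within a type, and correlations used log2(CPM + 1). TPM used exonic lengths of the Ensembl annotation, and marker sums used CPM of the library total. DESeq2 1.42.0, other scalings, filters and count tables, and fits that left out each library were the alternatives. The procedure was also run on counts simulated from the fitted means and spread. These do not carry the 5 polyA+ libraries of low histone share or the pools shared by library types, so the run cannot test those. Replicates are separate pools of flies, so within a library type the p-values cover the spread between pools. The fit of all 30 libraries had no term for the pool, although each pool gave 1 library of each type. A fit with a pool term was an alternative.

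The 7 genes and the lists were chosen with earlier results of these data known. From each list up to 3 called genes of smallest p at 37°C in rRNA− libraries were named, with Gp93, CG11267, DnaJ-1 and Roe1, and for each of the 7 genes the 2 of highest correlation. The Hop (now Stip1), l(2)tid and nos symbols of the lists matched no gene and were left out of the counts. Replicate numbers were not taken as pairs across temperatures, since correlations of deviations ran from −0.55 to 0.44. For polyA+ 10°C and 34°C alone, all 3 same-numbered pairs were above 0.1 (0.41 to 0.44), and these were not compared with each other; libraries of 1 pool shared flies (−0.35 to 0.53). Sequences were not used here.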

Additional observations from a re-analysis of the deposited data

How the results depend on the processing

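At 37°C in rRNA− libraries, Hsc70-3 and Hsc70Cb were called in each of 12 alternatives that kept the library types apart, Hsc70-4 in 10 and Hsc70-5 in 3. A single fit of all 30 libraries, which shares the spread of both types, called 0 (adjusted p = 0.845 for Hsc70-3), and leaving out single libraries gave 2 to 3 calls. The single call at 34°C (Hsp60A) became 4 with DESeq2 and 0 with full counts at 85 bp, with only the 6 libraries compared, with one fit of all 30 libraries and with the replicate block, and 0 to 1 without single libraries. The replicate block gave Hsp60A an adjusted p of 0.0557 and changed no other call of edgeR. Leaving out single libraries gave 0 to 1 calls at 10°C in rRNA− libraries and, by pools, for the interaction at 37°C. Between 37°C and 34°C in rRNA− libraries DESeq2 gave 1 call.

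In polyA+ libraries at 37°C the calls numbered 5 with DESeq2, with only the 6 libraries and with one fit of all 30 libraries, 3 with median-of-ratios size factors, 1 with full counts of 85 bp or 150 bp (Hsc70-2), and 0 to 4 without single libraries. The log2 fold change of Hsc70-3 there turned positive with DESeq2 and with median-of-ratios factors (0.14 each), without the low-count filter (0.016), with full counts of 85 bp (0.015) and 150 bp (0.0046), with the 6 libraries (0.055) and with the replicate block (0.10), and ran from −0.30 to 0.34 without single libraries. At 34°C in polyA+ libraries, libraries of high histone share alone turned Hsc70-1 to −0.13, Hsc70-3 to −0.75 and Hsc70Cb to −0.056, the histone term turned Hsc70-1 to −0.21, and Hsc70-3 ran from −0.25 to 0.65 without single libraries. The cause was not tested. Counts of 0 to 53 limit Hsc70-2.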

Other observations

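At 10°C the polyA+ libraries ordered Hsc70-3 and Hsp60A in opposite ways. Hsc70-3 measured 89.8, 189 and 625 CPM in replicates 1, 2 and 3, and Hsp60A measured 2007, 1714 and 478 CPM in the same libraries. The rRNA− libraries of these pools held 602, 642 and 707 CPM of Hsc70-3 and 944, 699 and 960 CPM of Hsp60A. Across all 15 polyA+ libraries the correlation of the pair was −0.45, and across the 15 rRNA− libraries it was 0.38, as a description of libraries that share temperature groups. A cause was not tested.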
